A study of Cricetulus griseus with 6 samples.

Results

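Thioredoxin reductases, sulfiredoxin, the peroxiredoxins and the thioredoxin inhibitor *Txnip* were examined as a group of 10 genes, chosen by symbol, and each was found on 1 of the 27873 rows of the expression files. The cells were CHO-T cells, a line of Chinese hamster ovary (CHO) cells in which a retrovirus drives the full-length cDNA of mouse T-cadherin (*Cdh13*), a transgene that both conditions share. They were transfected with negative control siRNA or *Xbp1* siRNA and harvested 48 h later, with 3 RNA-Seq libraries for each of the 2 conditions. *Xbp1* encodes X-box binding protein 1, a transcription factor of the endoplasmic reticulum (ER) stress response, and the comparison asks which mRNAs differ when it is silenced. A single *Xbp1* siRNA sequence was used, so the loss of *Xbp1* and other actions of that siRNA cannot be told apart. The labels do not say whether libraries came from separate cultures, and the study's methods state only in general that results come from independent biological experiments. If these libraries share a culture, the p-values measure a spread that may be technical. Expression is given in FPKM (fragments scaled to exon length and to the mapped reads of each library), which allows levels to be compared between genes.

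Peroxiredoxins are abundant enzymes that destroy hydrogen peroxide with a reactive cysteine. In the catalytic cycle of most of them this cysteine ends in a disulfide, which thioredoxin reduces, and oxidized thioredoxin is in turn reduced by thioredoxin reductase at the expense of NADPH. When peroxide is plentiful the cysteine can be overoxidized, and sulfiredoxin (*Srxn1*) reverses this. The family is divided by place in the cell. *Prdx1*, *Prdx2* and *Prdx6* are mainly cytosolic, as are *Txnrd1* and *Srxn1*; *Prdx4* resides in the ER, where it uses peroxide to drive disulfide formation in secretory proteins. *Prdx3* and *Txnrd2* are mitochondrial, and *Prdx5* is found in mitochondria as well as in peroxisomes and the cytosol. *Txnip* binds reduced thioredoxin and inhibits it. *Txnrd1*, *Srxn1* and *Prdx1* are textbook targets of NRF2, the transcription factor that responds to oxidants and electrophiles.

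The libraries were checked first. *Xbp1* had 26.0, 26.2 and 28.4 FPKM with control siRNA and 2.18, 2.11 and 1.39 FPKM with *Xbp1* siRNA (log2 fold change −3.78, standard error 0.16, adjusted p = 5.61e-06). Read totals are not in the files. The spacing of low FPKM values gave relative depths of 94.0% to 116% of control replicate 1. No library shared a value above 0 with a replicate of its condition, and log2 values correlated across genes with r of 0.991 to 0.992, where genes are not independent replicates. Of 4 mesenchymal genes of CHO cells (*Vim*, *Fn1*, *S100a6* and *Lgals1*), which summed to 2686 to 2906 FPKM with control siRNA and 1459 to 1528 FPKM with *Xbp1* siRNA, 3 were lower and 1 was higher at an adjusted p under 0.05. The labels name the tissue as ovary, but the granulosa cell gene *Fshr* was listed at 0 in all 6 libraries and *Amh* had at most 3.55 FPKM. Both epithelial genes listed, *Epcam* and *Cdh1*, were higher, with sums of 1.83 to 2.16 FPKM and 4.59 to 5.79 FPKM. The leukocyte genes *Ptprc* and *Cd68* summed to 5.18 to 6.15 FPKM and 6.99 to 8.80 FPKM, with *Cd68* higher and the defining *Ptprc* listed at 0. The endothelial genes *Pecam1* and *Cdh5* summed to at most 0.268 FPKM, with *Cdh5* listed at 0. The part of these markers in the results was not tested.

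The members were grouped by place in the cell for description, and a difference between places was not tested. Of the 5 cytosolic members, 4 were lower at an adjusted p under 0.05 and 0 were higher. The ER member *Prdx4* was higher, the 3 mitochondrial members did not pass the test, and *Txnip* was lower. The test was limma on log2(FPKM + 0.1) over 14361 genes, with p-values adjusted by the Benjamini-Hochberg method. At the same limit 20.2% of all genes tested were lower and 20.2% higher, and of the 7458 genes that, like each of the 10 members, averaged 10 FPKM or more, 30.2% were lower and 24.1% higher. After quantile normalization, which gives each library the same distribution of values, the lean of these 7458 genes turned round, to 24.8% lower and 29.6% higher. The members' own counts then were 3 lower and 1 higher of the cytosolic genes, 1 higher of the mitochondrial genes, and 4 lower and 3 higher of all 10. A large share of genes thus differed between the conditions, and the members' counts are to be read against that share. With the fold limit of the study's methods added, a log2 fold change of 1 or more in either direction, *Prdx1* alone was called, as lower, where 2.5% of all genes tested were called lower and 2.69% higher. Values of the conditions did not overlap in 6 members, 5 of them lower and 1 higher, against 25.8% lower and 26.1% higher without overlap among all genes tested. The median log2 fold change was −0.73 for the cytosolic members, 0.072 for the mitochondrial members, −0.11 for the 10 members and 0.0063 for all genes tested. After quantile normalization these medians were −0.42, 0.085, −0.015 and 0.016. Place went with level, as the cytosolic members averaged 128 to 1327 FPKM with control siRNA and the mitochondrial members 16.1 to 73.9 FPKM. Of the 1063 genes that averaged 100 FPKM or more, 44.1% were lower and 19.0% higher at an adjusted p under 0.05. Their median log2 fold change was −0.093. After quantile normalization 25.9% of them were lower and 37.7% higher. The part of level in the contrast between places was not tested. These are bulk samples, in which fewer cells that express a gene and less RNA of it per cell cannot be told apart.

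**Figure D1:**
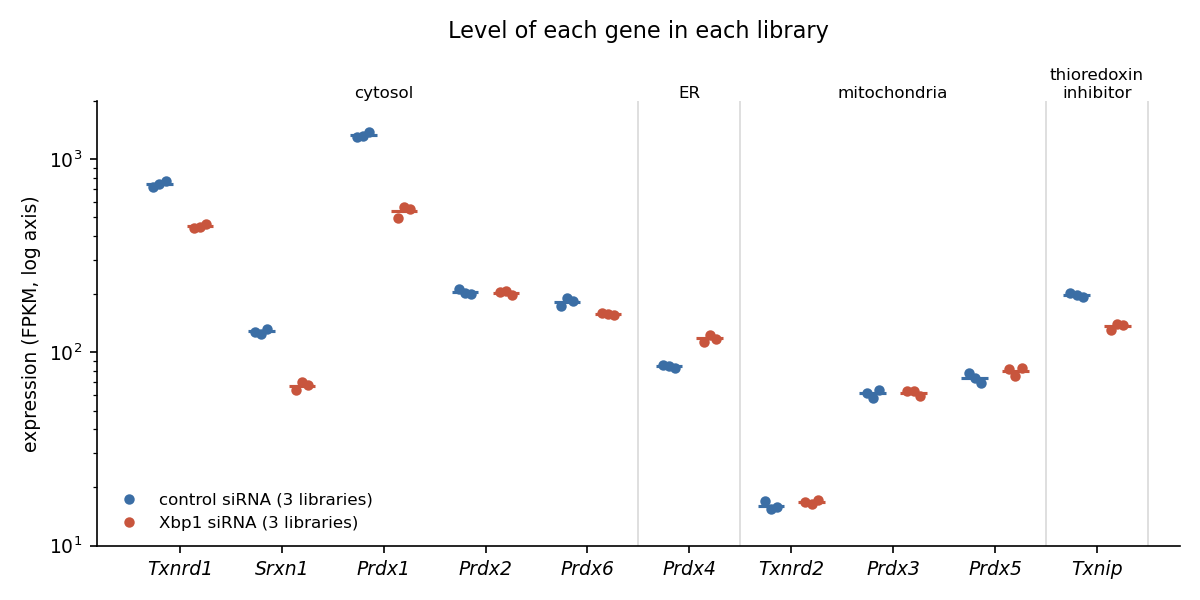
Expression of the 10 genes in FPKM on a log axis, grouped by place in the cell. Points are single libraries, 3 with control siRNA and 3 with *Xbp1* siRNA, and bars are their means. *Prdx1*, *Txnrd1*, *Srxn1*, *Prdx6* and *Txnip* lie lower with *Xbp1* siRNA in each library and *Prdx4* lies higher, while the points of the other 4 genes overlap.

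*Prdx1*, the most abundant peroxiredoxin of these cells, had the largest change of the 10 genes. It had 1291, 1318 and 1372 FPKM with control siRNA and 498, 564 and 549 FPKM with *Xbp1* siRNA. The conditions were far apart, and the highest library with *Xbp1* siRNA stood at less than the lowest control library. The mean of the control libraries was 1327 ± 41.1 FPKM (SD, n = 3) and that of the silenced cells 537 ± 34.8 FPKM (SD, n = 3), or 40.5% of the control. The log2 fold change came to −1.31 (standard error 0.05, adjusted p = 3.86e-06). By mean FPKM it ranked 59 of all 27873 rows with control siRNA and 124 with *Xbp1* siRNA. Among the 359 genes called lower its fold change ranked 164.

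*Srxn1*, which encodes the enzyme that repairs overoxidized peroxiredoxins, showed the second largest change. Its values were 127, 125 and 132 FPKM with control siRNA and 64.0, 70.1 and 67.4 FPKM with *Xbp1* siRNA. No library of one condition reached the range of the other. The log2 fold change came to −0.93 (standard error 0.04, adjusted p = 7.25e-06), with a 95% interval of −1.03 to −0.83. *Srxn1* was lower, but its estimate fell short of the fold limit.

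*Txnrd1*, the cytosolic and nuclear thioredoxin reductase and a selenoprotein, had 718, 745 and 766 FPKM with control siRNA. With *Xbp1* siRNA it had 441, 443 and 460 FPKM, again without overlap. This is 60.3% of the control, with a log2 fold change of −0.73 (standard error 0.03, adjusted p = 7.28e-06). *Txnrd1* and *Prdx1* are among the 142 genes that averaged 500 FPKM or more, and of these genes 66.9% were lower and 4.93% higher at an adjusted p under 0.05, with a median log2 fold change of −0.16. Both genes lay below that median. Quantile normalization turned this around, with 26.1% of the 142 genes lower and 52.8% higher. It moved their median to 0.10, the log2 fold change of *Txnrd1* to −0.42 (adjusted p = 3.91e-04) and that of *Prdx1* to −1.04 (adjusted p = 1.54e-05).

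The other cytosolic peroxiredoxins changed little or not detectably. *Prdx6*, which uses glutathione rather than thioredoxin as its reductant and also acts on phospholipids, had 174, 190 and 183 FPKM with control siRNA and 159, 157 and 156 FPKM with *Xbp1* siRNA. The conditions did not overlap, but the difference was small, with a log2 fold change of −0.21 (standard error 0.04, adjusted p = 0.00352). After quantile normalization it was −0.10 with an adjusted p of 0.0840, which ends the call. *Prdx2*, a close relative of *Prdx1* known for its abundance in red blood cells, had 212, 203 and 201 FPKM with control siRNA and 204, 207 and 199 FPKM with *Xbp1* siRNA. These values interleaved. The log2 fold change of *Prdx2* was −0.015 with a 95% interval of −0.094 to 0.064 (adjusted p = 0.762), and after quantile normalization it turned to 0.12 (adjusted p = 0.0127).

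*Prdx4*, the secretory pathway peroxiredoxin, moved in the other direction. It had 85.6, 85.2 and 83.1 FPKM with control siRNA and 113, 124 and 117 FPKM with *Xbp1* siRNA. Each library with *Xbp1* siRNA was higher than each control library. The level rose to 139% of the control, with a log2 fold change of 0.48 (standard error 0.04, adjusted p = 9.21e-05), and it stayed between 0.44 and 0.54 across all 14 alternatives. *Prdx4* was the only one of the 10 members higher at an adjusted p under 0.05 in the values as deposited. After quantile normalization *Prdx2* and *Prdx5* were higher as well.

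The mitochondrial members showed no difference that passed the test. *Prdx3*, the main peroxiredoxin of the mitochondrial matrix, had 61.7, 58.0 and 64.1 FPKM with control siRNA and 63.3, 62.9 and 59.1 FPKM with *Xbp1* siRNA. *Txnrd2*, the mitochondrial thioredoxin reductase and the least expressed of the group, had 17.0, 15.5 and 15.8 FPKM with control siRNA and 16.9, 16.4 and 17.3 FPKM with *Xbp1* siRNA. *Prdx5* had 78.5, 73.7 and 69.4 FPKM with control siRNA and 82.0, 75.8 and 83.4 FPKM with *Xbp1* siRNA. In all 3 genes the ranges of the conditions overlapped. The 95% intervals of the log2 fold changes bound what could have been missed, at −0.10 to 0.13 for *Prdx3*, −0.064 to 0.21 for *Txnrd2* and −0.012 to 0.26 for *Prdx5* (adjusted p = 0.876, 0.368 and 0.131). Quantile normalization took *Prdx5* to a log2 fold change of 0.18 and an adjusted p of 0.0275.

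*Txnip*, an alpha-arrestin that besides inhibiting thioredoxin restrains glucose uptake, was lower. It had 203, 197 and 193 FPKM with control siRNA and 131, 140 and 139 FPKM with *Xbp1* siRNA. The conditions did not overlap, and the level with *Xbp1* siRNA was 69.1% of the control. On the log2 scale this was a change of −0.53 (standard error 0.04, adjusted p = 4.02e-05).

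**Figure D2:**
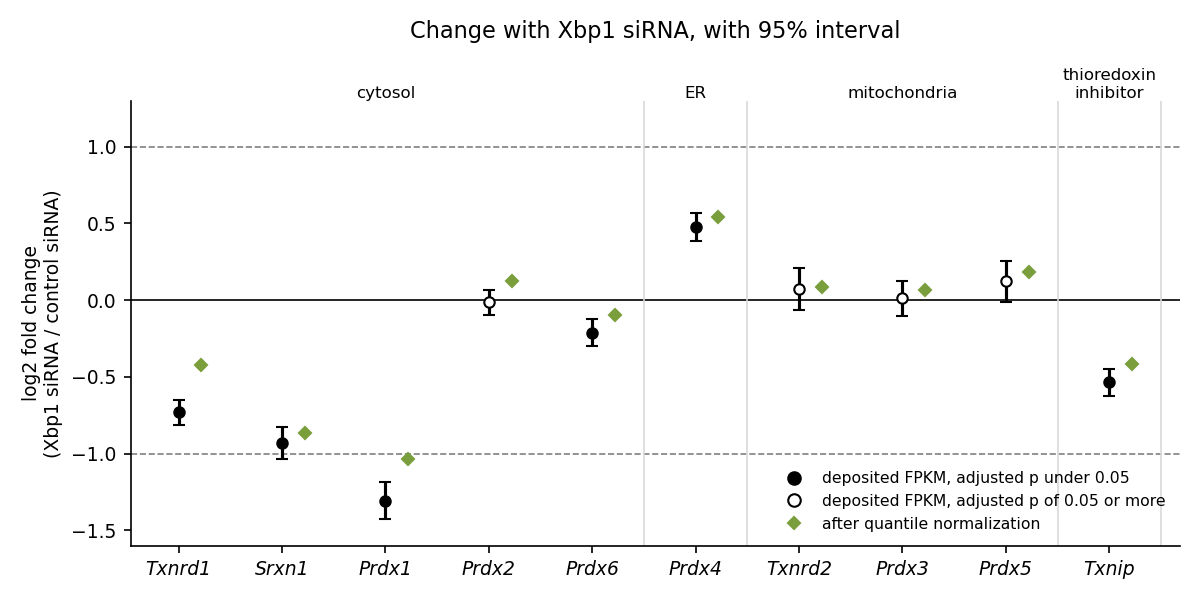
Log2 fold change of each gene with *Xbp1* siRNA against control siRNA, with its 95% interval from limma (circles, filled at an adjusted p under 0.05) and the value after quantile normalization (green diamonds). Dashed lines mark a log2 fold change of 1 in either direction. *Prdx1* at −1.31 is the only gene beyond them, *Prdx4* lies above 0 at 0.48, and the values after quantile normalization lie higher for all 10 genes.

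Since FPKM depends on the scaling of each library, pairs of members were also compared within libraries, where a single factor per library cancels but a shift that depends on the level does not. *Prdx1* had 6.08, 6.49 and 6.84 times the FPKM of *Prdx2* in control libraries and 2.44, 2.73 and 2.76 times after silencing. The log2 ratio of these cytosolic relatives thus fell by 1.29, against SDs of 0.08 and 0.10 between libraries. The ratio of *Prdx1* to the ER enzyme *Prdx4* went from 15.1, 15.5 and 16.5 to 4.39, 4.57 and 4.69, the largest shift of the 4 pairs, and its log2 value fell by 1.79. The ratio of *Prdx1* to mitochondrial *Prdx3* went from 20.9, 22.7 and 21.4 to 7.87, 8.98 and 9.28. The cytosolic thioredoxin reductase *Txnrd1* had 42.3, 48.1 and 48.6 times the FPKM of mitochondrial *Txnrd2* in control libraries and 26.1, 27.0 and 26.5 times after silencing. That log2 ratio fell by 0.80, and after quantile normalization by 0.51. In each of the 4 pairs the conditions were apart. The exact permutation test, two-sided, then gives p = 0.10, the smallest that 3 libraries against 3 allow, and it remained 0.10 after Benjamini-Hochberg adjustment over the 4 pairs. This permutation test cannot pass 0.05 with 3 libraries against 3, and no other test was run on the ratios. The shift of *Prdx1* against *Prdx2*, both cytosolic, was close in size to that of *Prdx1* against mitochondrial *Prdx3*, whose log2 ratio fell by 1.32.

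The makeup of peroxiredoxin mRNA differed as well. *Prdx1* held 67.8%, 68.4% and 69.6% of the summed FPKM of the 6 peroxiredoxins in control libraries, and 44.5%, 47.4% and 47.2% after silencing. The share of *Prdx4* went from 4.38% ± 0.15 (SD, n = 3) to 10.2% ± 0.17 (SD, n = 3). That of *Prdx2*, whose level hardly differed, went from 10.6% ± 0.49 (SD, n = 3) to 17.6% ± 0.59 (SD, n = 3), because the sum itself was smaller. The 6 genes summed to 1935 ± 35.0 FPKM in control libraries and to 1158 ± 35.9 FPKM after silencing (SD, n = 3 each). Without *Prdx1*, the other 5 summed to 608 ± 6.20 and 621 ± 5.84 FPKM (SD, n = 3 each), so that the drop of the sum lay in *Prdx1*.

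**Figure D3:**
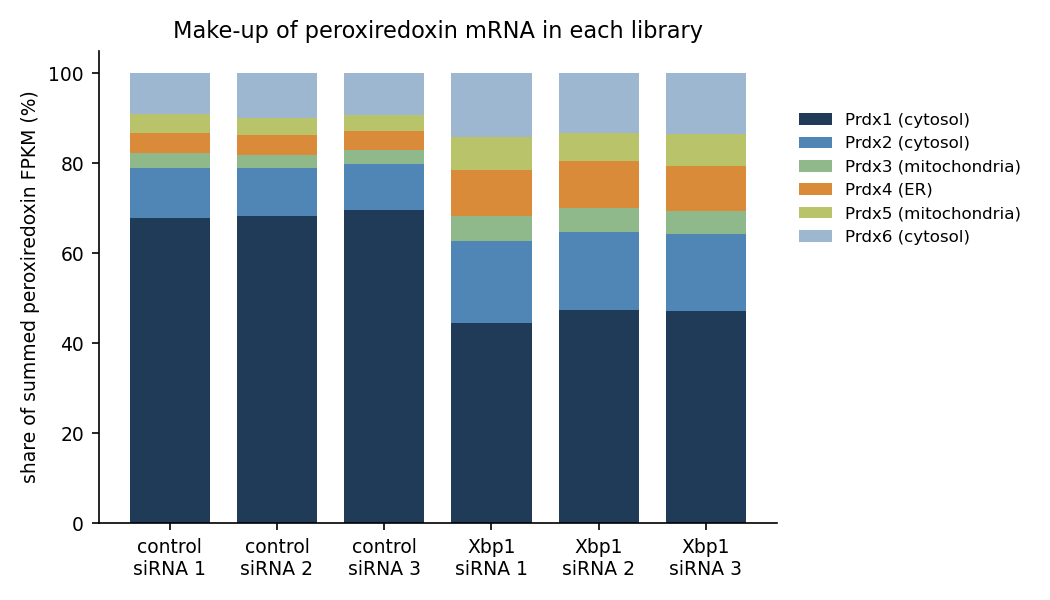
Share of each peroxiredoxin in the summed FPKM of the 6 peroxiredoxin genes, in percent, as 1 stacked bar per library. The *Prdx1* segment covers 67.8% to 69.6% of the bars with control siRNA and 44.5% to 47.4% of those with *Xbp1* siRNA.

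In the order of levels, *Prdx1* and *Txnrd1* stood far above the other members in both conditions and *Txnrd2* far below. With control siRNA the order after *Txnrd1* was *Prdx2*, *Txnip*, *Prdx6*, *Srxn1*, *Prdx4*, *Prdx5*, *Prdx3* and *Txnrd2*. Of these neighbours, the ranges of *Prdx2* and *Txnip* overlapped between libraries and those of the others did not. With *Xbp1* siRNA *Prdx6* stood above *Txnip*, and *Srxn1* was below *Prdx4* and *Prdx5*. No neighbouring ranges overlapped there. Replicate spread was small, with coefficients of variation of 0.822% to 6.49% over the 10 genes and both conditions.

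The genes whose profile over the 6 libraries was most like that of *Prdx1* were sought among 9392 other genes with a symbol that averaged 1 FPKM or more, by the root mean square difference of log2 values centred on each gene's mean. The nearest were *Uhmk1*, a protein kinase, with a difference of 0.040, *Rin2*, a regulator of the GTPase Rab5, with 0.041, and *Mbnl1*, a splicing regulator, with 0.046. Their log2 fold changes were −1.25, −1.23 and −1.36. The profiles consist mainly of the difference between the conditions.

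Genes around the thioredoxin system were counted in 8 lists of 57 symbols, of which 54 were in the files and 48 were tested. At an adjusted p under 0.05, 16 were lower and 11 higher. The shares were 20.2% in each direction for all genes tested, and 30.2% lower and 24.1% higher for those that averaged 10 FPKM or more. Most of the list genes reached that level. After quantile normalization the split was 11 lower and 12 higher, against 24.8% lower and 29.6% higher of the genes at that level. Of the 27 list genes that differed in the values as deposited, 13 kept an adjusted p under 0.05 in each alternative that gave a value. Of these, 9 were lower and 4 higher. With the fold limit, 1 gene was called lower and 0 higher, against 2.5% and 2.69% of all genes tested. The counts of single lists below are to be read against the same shares.

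Among thioredoxins and glutaredoxins, 3 of 10 tested genes were lower and 1 was higher, and after quantile normalization 1 in each direction. *Glrx5*, a mitochondrial glutaredoxin needed for iron-sulfur cluster assembly, fell from 149 ± 1.52 to 70.6 ± 1.68 FPKM (SD, n = 3 each). Its log2 fold change was −1.07 (adjusted p = 1.59e-06), and after quantile normalization −0.98, just short of the fold limit. *Txn*, the cytosolic thioredoxin that *Txnrd1* reduces and *Txnip* binds, had 761, 790 and 754 FPKM with control siRNA and 611, 635 and 634 FPKM with *Xbp1* siRNA. No library overlapped, with a log2 fold change of −0.29 (adjusted p = 3.10e-04), but after quantile normalization it was 0.028 (adjusted p = 0.606). Mitochondrial *Txn2* had a value of −0.049 (adjusted p = 0.424). *Txndc12*, a thioredoxin-like protein of the ER, was higher with 0.23 (adjusted p = 0.00350).

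The level of *Txnip* relative to *Txn* was 0.266, 0.249 and 0.256 in control libraries and 0.214, 0.220 and 0.219 after silencing. That of *Txnrd1* relative to *Txn* was 0.942, 0.944 and 1.02 in control libraries and 0.722, 0.698 and 0.725 after silencing. Both ratios were lower in each library with *Xbp1* siRNA than in each control library. They were chosen after the values were seen and were not tested.

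Among other enzymes that remove peroxide or superoxide, 3 of 7 tested genes were lower and 2 higher, and after quantile normalization 2 in each direction. *Gpx4*, the glutathione peroxidase that protects membrane lipids, changed by −0.58 on the log2 scale (adjusted p = 3.28e-04), and *Cat*, the peroxisomal catalase, by −0.44 (adjusted p = 3.21e-04). *Gpx8*, a peroxidase of the ER membrane, was higher. It had 94.8, 94.5 and 94.1 FPKM with control siRNA and 123, 138 and 125 FPKM after silencing, or 0.45 on the log2 scale (adjusted p = 2.84e-04). The ratio of *Prdx4* to *Gpx8*, chosen after the values were seen, was 0.903, 0.901 and 0.883 in control libraries and 0.920, 0.894 and 0.933 after silencing, with overlap. The other ER peroxidase, *Gpx7*, had at most 0.255 FPKM in any library and was not tested.

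Of 9 tested genes of ER thiol oxidation, 4 were higher and 2 lower, and after quantile normalization 6 higher and 1 lower. *Qsox2*, a sulfhydryl oxidase of the secretory pathway, had the largest increase, with a log2 fold change of 0.75 (adjusted p = 3.99e-05). *Ero1b*, which oxidizes protein disulfide isomerase and produces peroxide, was lower with −0.45 (adjusted p = 0.00709). *P4hb*, the other lower gene, had −0.21 (adjusted p = 7.58e-04), and at most 0.00440 for the adjusted p on leaving out single libraries. After quantile normalization *P4hb* had −0.040 (adjusted p = 0.232). *Vkorc1*, the vitamin K epoxide reductase, had 0.54 (adjusted p = 0.0280). The adjusted p of *Vkorc1* was above 0.05, at up to 0.0870, in fits that left out replicate 1 or 3 of the control or replicate 1 or 2 of the silenced cells. *Ero1a* and *Pdia3*, the other higher genes, also lost significance on leaving out single libraries, with adjusted p up to 0.113 and 0.0754, so that *Qsox2* alone of the 4 held in each such fit.

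Selenocysteine insertion was listed because both thioredoxin reductases are selenoproteins. Of its 6 genes, 3 were lower and 1 higher, and after quantile normalization 2 were lower and 0 higher. *Sephs2*, which makes the selenium donor for selenocysteine synthesis and is itself a selenoprotein, had 68.9, 66.9 and 63.7 FPKM with control siRNA and 36.2, 38.3 and 34.8 FPKM with *Xbp1* siRNA. The conditions did not overlap, with a log2 fold change of −0.87 (adjusted p = 1.90e-05). *Eefsec*, the elongation factor for selenocysteine, had −0.38 (adjusted p = 0.0225), and *Sepsecs*, the selenocysteine synthase, 0.42 (adjusted p = 0.0375). The p of *Eefsec* passed 0.05, at up to 0.0763, when replicate 1 or 2 of the control or 2 or 3 of the silenced cells was left out. That of *Sepsecs* did so, at up to 0.120, without any library other than control replicate 3, and after quantile normalization it was 0.0520. *Trnau1ap*, the other lower gene, had −0.18 (adjusted p = 0.0184). Its adjusted p was above 0.05, at up to 0.0600, without replicate 1 of the control or 1 or 2 of the silenced cells. After quantile normalization it was 0.0596.

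The methionine sulfoxide reductases, which draw on thioredoxin to repair oxidized methionine, gave 2 higher and 1 lower of 4 tested. *Msrb2* had a log2 fold change of 0.46, *Msrb1* of 0.22 and *Msrb3* of −0.41 (adjusted p = 0.0440, 0.0428 and 0.0182). None of the 3 held when libraries were left out. The adjusted p of *Msrb1* rose to at most 0.123 on leaving out replicate 1 or 3 of the control or 2 or 3 of the silenced cells. For *Msrb2* it rose to at most 0.131 without any library other than control replicate 3, and for *Msrb3* to at most 0.0601 without control replicate 2 or 3.

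For the relatives and regulators of *Txnip*, 0 of 5 tested genes passed the limit in either direction, with log2 fold changes from −0.29 to 0.23. *Mlxip* passed it in the fit with a replicate block and without *Xbp1* siRNA replicate 2, with an adjusted p down to 0.0181, and *Arrdc1* with the block and without control replicate 1, down to 0.0293. Among these are *Mlxip* (MondoA), the glucose-sensing activator of *Txnip* transcription, and its partner *Mlx*, with −0.29 and −0.13 (adjusted p = 0.0937 and 0.133). *Arrdc4* was listed at 0 in all 6 libraries. *Map3k5*, the kinase ASK1 that reduced thioredoxin holds inactive, was also listed at 0, and its relative *Map3k6* was higher by 0.48 on the log2 scale (adjusted p = 0.00608).

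Of the 6 genes listed as NRF2 and its regulators, 4 were lower and 0 higher, a split that was the same after quantile normalization. Of all genes tested that averaged 10 FPKM or more, 30.2% were lower and 24.1% higher. *Nfe2l2*, the gene of NRF2 itself, had 156, 164 and 161 FPKM with control siRNA and 119, 116 and 118 FPKM with *Xbp1* siRNA. That is 73.1% of the control without overlap, a log2 fold change of −0.45 (adjusted p = 4.17e-05). Its small MAF partners *Mafk* and *Mafg* had −0.72 and −0.46 (adjusted p = 5.28e-05 and 6.26e-05). *Keap1*, which directs NRF2 to degradation, had 0.20 (adjusted p = 0.0796), and 0.0264 without *Xbp1* siRNA replicate 2. This list was drawn up with earlier results for NRF2 targets in these libraries known, so its values are not independent of them. Those results are not shown here, and a part of NRF2 in the levels of the members was not tested.

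**Figure D4:**
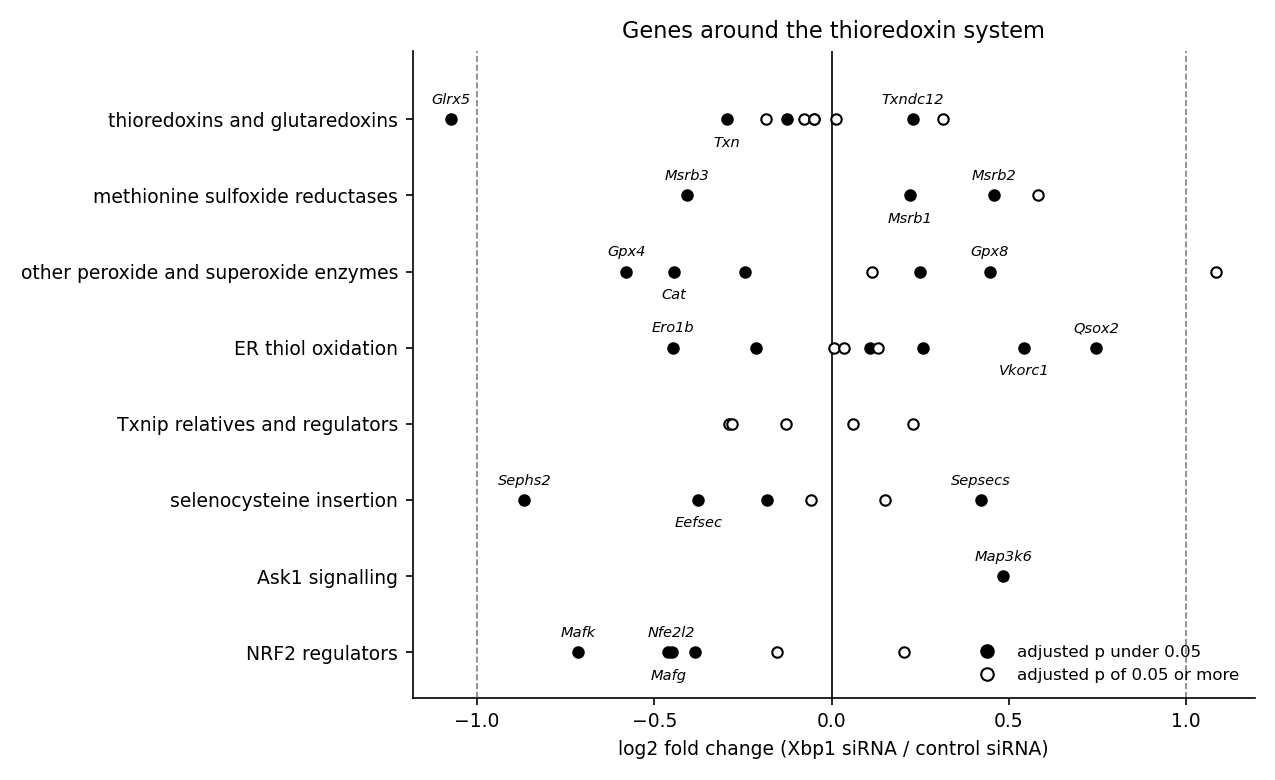
Log2 fold change of 48 tested genes in 8 lists around the thioredoxin system, filled at an adjusted p under 0.05. Dashed lines mark a log2 fold change of 1 in either direction. *Glrx5* at −1.07 lies beyond the lower line with a filled point, while the NRF2 list has 4 filled points, each below 0.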

How the data were processed

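RNA-Seq data of 3 control siRNA and 3 *Xbp1* siRNA libraries of CHO-T cells were used. Stranded mRNA libraries were prepared, and the authors deposited FPKM per gene symbol, 1 library per file. Their processing notes name HISAT2 2.1.0 and Cuffdiff 2.2.1. The genome build and annotation are not given in the sources used here, so no coordinates or sequences are printed. All 10 symbols matched a Chinese hamster gene table from RefSeq.

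The study's methods name a count model, which FPKM cannot enter. Instead limma 3.58.1 (lmFit, and eBayes with trend) in R 4.3.3 was run on log2(FPKM + 0.1) of the genes that averaged 0.1 FPKM or more. This scale understates changes of weakly expressed genes. P-values were adjusted by Benjamini-Hochberg over all genes tested, and calls with the fold limit required, besides an adjusted p under 0.05, a log2 fold change of 1 or more in either direction. Other steps used Python 3.11.15 and scipy 1.17.1. Relative depth was taken from the most frequent ratio of low FPKM values between libraries. Total depth is unknown, so no counting intervals are given.

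The members and lists were chosen with earlier results of these data known. Named are all members, called genes of the lists and up to 3 genes per list with the largest change at an adjusted p under 0.05, and the 3 genes most like a called member. *Txn2*, *Gpx7*, *Arrdc4*, *Map3k5*, *Mlxip*, *Mlx*, *Arrdc1*, *Ero1a*, *Pdia3*, *P4hb*, *Gpx1*, *Sod1*, *Trnau1ap* and *Keap1* were named after their values were seen. Reads shared with paralogs or pseudogenes were not examined. Alternatives were other pseudocounts, filters and scalings, eBayes without trend, a replicate block and leaving out each library.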

Additional observations from a re-analysis of the deposited data

How the results depend on the processing

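Of 140 log2 fold changes recomputed for the 10 members under 14 alternatives, 6 changed sign, all of them for *Prdx2* and *Prdx3*, whose values lay near 0. *Prdx2* had 0.12 after quantile normalization and −0.031 to 0.0091 on leaving out 1 library at a time, where *Prdx3* had −0.027 to 0.045. The call of *Prdx1* held in all 14, and no other member was called by the fold limit in any. The adjusted p crossed 0.05 only after quantile normalization, for *Prdx2*, *Prdx5* and *Prdx6*. Without the fold limit, 1 member was higher and 5 lower, 11 list genes were higher and 16 lower, and 2898 of all tested genes were higher and 2904 lower. With the fold limit, quantile normalization left 0 list genes called lower. A pseudocount of 1 gave 114 genes called higher and 205 lower, and testing only genes that averaged 1 FPKM or more gave 242 higher, against 386 and 359 in the values reported. In the fit with a replicate block, 363 genes passed as higher and 353 as lower, with 1 member lower. The labels do not say whether the numbers pair the libraries. Deviations of libraries with the same number correlated across genes with r of −0.029, −0.027 and −0.012, so no shared deviation was seen. Ratios within libraries, recomputed without each library in turn as a choice made after the data were seen, moved by less than their spread. After quantile normalization, also chosen then, the change of the log2 ratio was −0.51 for *Txnrd1* to *Txnrd2*, and for *Prdx1* −1.16 to *Prdx2*, −1.58 to *Prdx4* and −1.10 to *Prdx3*, against −0.80, −1.29, −1.79 and −1.32 in the values reported. Only FPKM were used, so depth cannot be stated per gene.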
